A study of Mus musculus with 6 samples.

Results

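The 10 genes described here are grouped as suppressors of ferroptosis that act without GPX4. They were picked by symbol from the deposited table of read counts: Aifm2, Dhodh, Gch1, Vkorc1l1, Nqo1, Prdx6, Cisd1, Mboat1, Mboat2 and Acsl3. All 10 were found among the 31205 genes of the table. The rule uses symbols only, no measured value. The libraries are RNA-seq of DC2.4, an immortalised mouse dendritic cell line, in a PD-L1 knockout derivative (3 libraries, called KO below) and in its control (3 libraries). PD-L1 is the product of Cd274 and inhibits T cells through the receptor PD-1, and the series title places the comparison in work on PD-L1, ferroptosis of dendritic cells and immunogenic chemotherapy. No drug is named in the labels of these 6 libraries, and they do not say how the gene was disrupted, whether the KO line is a single clone, or whether the libraries within a group are separate cultures. The p-values therefore reflect library-to-library spread that may be technical only.

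Ferroptosis is an iron-dependent death in which polyunsaturated acyl chains of membrane phospholipids are peroxidised. GPX4 stops it by reducing lipid hydroperoxides with glutathione. A second layer of defence traps lipid radicals with reduced quinones and pterins: FSP1 (Aifm2) reduces ubiquinone and vitamin K at the plasma membrane, DHODH reduces ubiquinone in the inner mitochondrial membrane, VKORC1L1 and NQO1 reduce vitamin K and other quinones, and GCH1 makes the precursor of tetrahydrobiopterin. Other members act on peroxides (PRDX6), on mitochondrial iron (CISD1, also called mitoNEET) or on the acyl chains themselves: ACSL3 activates monounsaturated fatty acids, and MBOAT1 and MBOAT2 place them in phospholipids, where they cannot be peroxidised readily.

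Library totals were 13501776 to 21133688 counts in KO and 10918498 to 23250065 in control. Cd274 itself was not lower in the libraries labelled KO, with 102, 81 and 163 counts in KO libraries 1, 2 and 3 and 52, 99 and 171 in control libraries 1, 2 and 3. A count of the whole gene cannot reveal a lesion inside it, so the KO label is unchecked and every direction below rests on it. Of 13 dendritic cell markers 7 had enough counts to be tested, among them Itgax, Zbtb46, Irf8, Cd80 and Cd86, while Flt3, H2-Ab1 and Ccr7 had at most 1, 4 and 1 counts in any library. The summed CPM (the usual scaling of counts to library size, here with TMM factors) of those markers ranged from 424 to 448 in KO and from 404 to 437 in control, more than any other gene from Cd74 (256 CPM in KO and 242 in control on average). Of the 7, Cd80 was higher (log2 fold change 0.53, edgeR adjusted p = 0.0318) and Zbtb46 lower (-0.72, 0.0490). Over all tested genes 25.3% were called, 11.8% higher and 13.5% lower. The 7 macrophage markers summed to 680 to 1043 CPM in KO and 902 to 1166 in control, mostly from Cd68 (569 CPM in KO and 554 in control on average). Of 6 tested, 4 were lower, beside 13.5% of all tested genes. These were Lyz2 (log2 fold change -2.81, edgeR adjusted p = 9.3e-05), Fcgr1 (-1.18, 0.000625), Csf1r (-0.72, 0.0143) and Cd163 (-2.70, 0.00690, at most 32 counts in a library). Lyz2 averaged 15.9 CPM in KO and 111 in control. The part of either list in the results below was not tested. Summed CPM of 8 fibroblast markers reached 0.201 at most in KO, while control library 2 had 217. Nearly all of the 217 came from Col1a1 (132 CPM, 2235 counts) and Fn1 (81.9 CPM, 1382 counts). Control libraries 1 and 3 had 4 and 5 counts of Col1a1 and 1 count each of Fn1. Col1a2, Col3a1 and Pdgfrb had only 22, 10 and 7 counts in control library 2. Dcn, Lum and Thy1 had 0 counts in all 6 libraries. The source of the Col1a1 and Fn1 reads was not tested. The calls of members and of list genes are therefore also followed without control library 2. In bulk RNA, fewer cells of a type and less RNA per cell cannot be told apart.

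Promoters of the member with the largest rise (Nqo1), of the only member that fell (Mboat1) and of a member that was not called (Gch1) are shown to place the motifs of factors known to act on such genes. RefSeq promoter sequences on GRCm38.p6 were at hand for 8 of the 10 members; those of Dhodh and Prdx6 were not used here. Each line holds the 250 bases before the RefSeq start, 5′ to 3′ on the gene's strand, with capitals marking the motif matches described after them.
Nqo1 (chr8:107403206-107403455, minus strand): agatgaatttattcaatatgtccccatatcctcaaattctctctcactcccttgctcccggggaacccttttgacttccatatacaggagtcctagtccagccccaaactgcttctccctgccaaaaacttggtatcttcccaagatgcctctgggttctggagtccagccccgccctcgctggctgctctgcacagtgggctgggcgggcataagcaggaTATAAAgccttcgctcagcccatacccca
Mboat1 (chr13:30136240-30136489, plus strand): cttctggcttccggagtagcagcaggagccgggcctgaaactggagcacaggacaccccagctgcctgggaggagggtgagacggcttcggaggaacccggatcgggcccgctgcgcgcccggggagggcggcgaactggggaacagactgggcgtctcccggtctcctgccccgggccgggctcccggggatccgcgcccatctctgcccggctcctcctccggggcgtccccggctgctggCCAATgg
Gch1 (chr14:47189414-47189663, minus strand): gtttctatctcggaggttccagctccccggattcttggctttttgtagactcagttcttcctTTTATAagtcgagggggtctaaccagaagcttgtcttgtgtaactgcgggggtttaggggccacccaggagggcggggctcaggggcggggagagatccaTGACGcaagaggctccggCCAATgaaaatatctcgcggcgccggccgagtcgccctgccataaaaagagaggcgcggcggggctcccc

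The motifs searched, on both strands, were the antioxidant response element core TGACNNNGC, the palindromic oestrogen response element, the cyclic AMP response element core TGACG, the xenobiotic response element core GCGTG, the TATA box TATAAA and the CCAAT box. TGACNNNGC and TGACG can overlap. The 250-base windows of all 32851 RefSeq promoters held them in 10.2%, 0.0639%, 17.8%, 28.2%, 12.4% and 33.8% of cases, in that order. The Nqo1 window held TATAAA 29 to 24 bases before the start. The Mboat1 window held CCAAT 7 to 3 bases before the start. The Gch1 window held TGACG 88 to 84 bases and CCAAT 70 to 66 bases before the start, and TATAAA on the opposite strand 188 to 183 bases before it. TGACNNNGC and the oestrogen response element had no match in the windows of the 8 members, which says only that these letters are not in these 250 bases.

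Measured per exon length, the members spanned a wide range of levels. Prdx6 and Cisd1 were the most abundant, at 66.2 ± 8.71 and 65.9 ± 12.8 CPM per kb of exon in KO and 45.4 ± 3.91 and 42.2 ± 2.25 in control (SD, n = 3 each). Their library values overlapped in both groups, so their order is not resolved. Acsl3 followed at 18.6 ± 2.09 CPM per kb in KO and 16.6 ± 2.50 in control. Dhodh (10.9 ± 0.742) stood above Vkorc1l1 (8.40 ± 1.54) in every KO library, whereas in control Vkorc1l1 (9.68 ± 0.717) stood above Dhodh (7.95 ± 0.922), and in both groups the library values of the 2 genes did not overlap. Mboat1 had 4.26 ± 0.668 CPM per kb in KO, where it overlapped with Aifm2 and Gch1, and 7.25 ± 2.05 in control, where it overlapped with Dhodh and Vkorc1l1. Aifm2 (3.77 ± 0.640 in KO and 3.66 ± 0.221 in control) and Gch1 (3.49 ± 0.557 in KO and 3.16 ± 0.363 in control) could not be ordered in either group. Nqo1 was low, at 1.59 ± 0.273 CPM per kb in KO and 0.763 ± 0.143 in control. In control cells the level of Prdx6 exceeded that of 91.1% of the tested genes, and that of Nqo1 exceeded 10.5%. Mboat2 was nearly absent, with 1, 1 and 3 counts in KO libraries 1, 2 and 3 and 0, 8 and 4 in control libraries 1, 2 and 3.

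**Figure D1:**
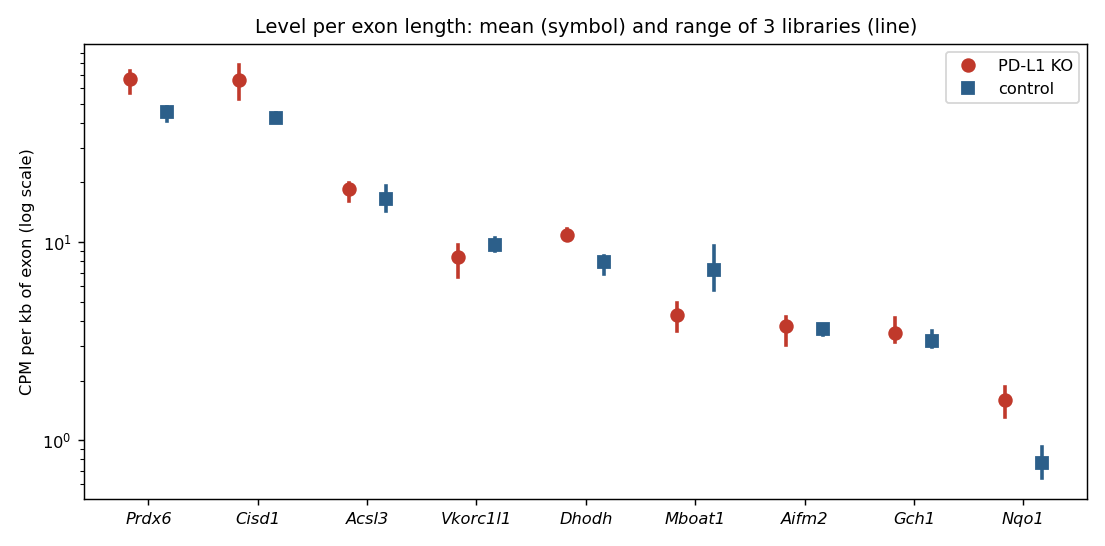
Level of 9 suppressors as CPM per kb of exon on a log axis, PD-L1 KO (circles) left of control (squares); symbols are means and lines the range of 3 libraries. Prdx6 and Cisd1 lie highest, near 66 CPM per kb in KO, and Nqo1 lowest, at 1.59 in KO and 0.763 in control; Mboat2 is left out for its low counts.

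Of the 9 members with enough counts to be tested, 4 rose in KO cells (Nqo1, Cisd1, Prdx6 and Dhodh) and 1 fell (Mboat1), by edgeR's quasi-likelihood test at an adjusted p under 0.05. The other 4 (Aifm2, Gch1, Vkorc1l1 and Acsl3) were not called. Over all 11453 genes tested, 25.3% were called, 11.8% higher and 13.5% lower. The KO and control libraries did not overlap for the 5 called members, as for 43% of all tested genes. The median log2 fold change was 0.16 over the 9 members and 0.01 over all tested genes.

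**Figure D2:**
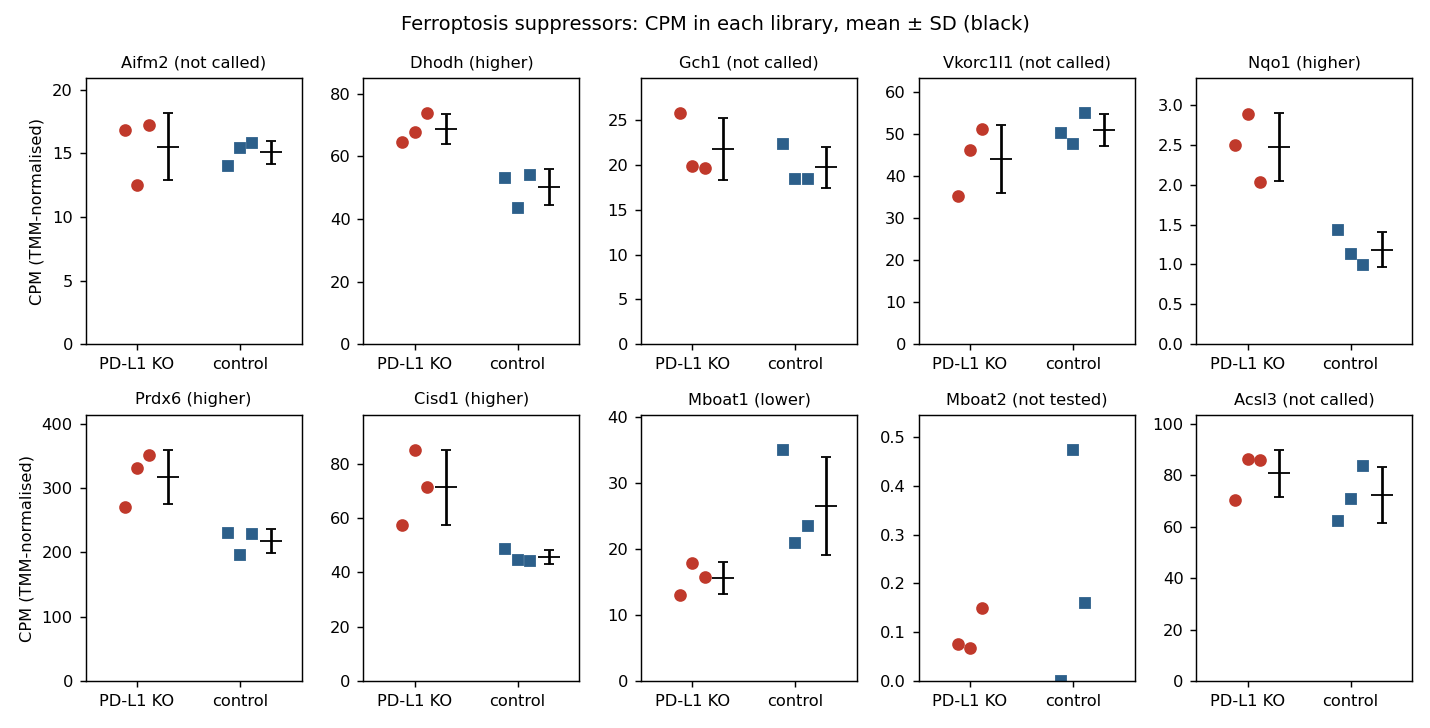
TMM-normalised CPM of the 10 suppressors in each library, PD-L1 KO (circles) left of control (squares), libraries 1 to 3 from left to right, with mean ± SD of 3 libraries in black (not drawn for Mboat2). Nqo1, Cisd1, Prdx6 and Dhodh lie higher in all KO libraries than in any control library, Mboat1 lies lower, and the groups overlap for the other 5.

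Among the quinone reductases, Nqo1 and Dhodh rose, while Aifm2 and Vkorc1l1 did not pass the test. Nqo1, a cytosolic NAD(P)H quinone reductase and a standard NRF2 target (ENSMUSG00000003849.8, chromosome 8, 107388225 to 107403206, mm10), had 33, 43 and 41 counts in KO libraries 1, 2 and 3 and 16, 19 and 25 in control libraries 1, 2 and 3. As normalised values these were 2.49, 2.89 and 2.04 CPM in KO and 1.43, 1.13 and 0.999 CPM in control. Every KO library stood above every control library, at a fold of 2.11 (log2 fold change 1.08, SE 0.33, 95% interval 0.34 to 1.81, edgeR adjusted p = 0.0391). Its exons sum to 1553 bases, and the 500 tested genes nearest to it in exon length had a median log2 fold change of 0.41. A trend with length ran through all tested genes of known length. The median log2 fold change was 0.35 for genes with at most 2412 exon bases and -0.35 for those with more than 7497. With the trends of each library with exon length and GC content removed, its log2 fold change was 0.67 (edgeR adjusted p = 0.166). The call also ended without KO library 2 (0.95, edgeR adjusted p = 0.146), KO library 3 (1.21, 0.0729), control library 2 (1.05, 0.156) or control library 3 (0.96, 0.138), with no filter on low counts (1.08, 0.0597) and with scaling by total counts alone (0.92, 0.0654).

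Dhodh, the mitochondrial enzyme that oxidises dihydroorotate in pyrimidine synthesis and passes the electrons to ubiquinone (ENSMUSG00000031730.18, chromosome 8, 109591343 to 109608673), had 64.5, 67.9 and 73.8 CPM in KO libraries 1, 2 and 3. Control libraries 1, 2 and 3 had 53.2, 43.6 and 54.0 CPM. The groups did not overlap, and control library 2 was the lowest of the 6. The fold was 1.37 (log2 fold change 0.45, SE 0.14, 95% interval 0.14 to 0.76, edgeR adjusted p = 0.0386). The rise was 0.58 with the length and GC trends removed (edgeR adjusted p = 0.0199), and the 500 genes nearest in exon length had a median of -0.07. It was still called without KO library 1 (0.49, edgeR adjusted p = 0.0147), but not without KO library 2 (0.46, 0.100), KO library 3 (0.40, 0.135), control library 1 (0.50, 0.0524), control library 2 (0.36, 0.190) or control library 3 (0.51, 0.0702), nor with total counts alone (0.30, 0.139).

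Aifm2, which encodes FSP1 (ENSMUSG00000020085.15, chromosome 10, 61715263 to 61739260), had 16.8, 12.5 and 17.3 CPM in KO libraries 1, 2 and 3 and 14.0, 15.4 and 15.8 CPM in control libraries 1, 2 and 3. KO library 2 was the lowest of all and the other 2 KO libraries were the highest. The log2 fold change was 0.04 (SE 0.17, 95% interval -0.34 to 0.43, edgeR adjusted p = 0.877), and it was negative in 5 of 17 other settings: -0.11 with total counts alone, -0.02 without KO library 1, -0.04 without KO library 3, -0.01 without both control library 2 and KO library 1, and -0.0018 without control library 1. Aifm2 shares 233 exon bases with Macroh2a2 on the opposite strand, which had at most 7 counts in any library. Vkorc1l1, the paralogue of the warfarin target (ENSMUSG00000066735.8, chromosome 5, 129941970 to 129986692), had 35.3, 46.1 and 51.1 CPM in KO libraries 1, 2 and 3 and 50.2, 47.6 and 55.0 CPM in control libraries 1, 2 and 3. KO library 1 was the lowest, and the groups overlapped (log2 fold change -0.20, SE 0.16, 95% interval -0.56 to 0.15, edgeR adjusted p = 0.363).

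Gch1, GTP cyclohydrolase, the rate-limiting enzyme of tetrahydrobiopterin synthesis (ENSMUSG00000037580.10, chromosome 14, 47153895 to 47189413), had 25.8, 19.9 and 19.6 CPM in KO libraries 1, 2 and 3 and 22.4, 18.4 and 18.5 CPM in control libraries 1, 2 and 3. Library 1 was the highest in each group, and the groups overlapped. The log2 fold change was 0.14 (SE 0.16, 95% interval -0.22 to 0.51, edgeR adjusted p = 0.538). It lay between -0.04 and 0.24 over 17 other settings and was called in 0 of them.

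Prdx6, a peroxiredoxin that reduces phospholipid hydroperoxides and also carries phospholipase activity (ENSMUSG00000026701.15, chromosome 1, 161240112 to 161251219), had 271, 331 and 352 CPM in KO libraries 1, 2 and 3. Control libraries 1, 2 and 3 had 230, 197 and 228 CPM. All KO libraries were above all control libraries, with KO library 1 the lowest of its group. The fold was 1.46 (log2 fold change 0.54, SE 0.14, 95% interval 0.22 to 0.86, edgeR adjusted p = 0.0228). The related gene Prdx6b had at most 2 counts in any library. The rise was 0.56 with the length and GC trends removed (edgeR adjusted p = 0.0198). The call ended without KO library 2 (0.51, edgeR adjusted p = 0.0778), KO library 3 (0.47, 0.0925), control library 2 (0.47, 0.126) or control library 3 (0.58, 0.0536), and with total counts alone (0.39, 0.0570).

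Cisd1, an iron-sulfur protein of the outer mitochondrial membrane that limits mitochondrial iron uptake (ENSMUSG00000037710.8, chromosome 10, 71330480 to 71344954), had 57.5, 85.2 and 71.6 CPM in KO libraries 1, 2 and 3. Control libraries 1, 2 and 3 had 48.5, 44.5 and 44.1 CPM. The groups did not overlap, and the KO libraries were spread more widely than the controls. The fold was 1.56 (log2 fold change 0.65, SE 0.16, 95% interval 0.29 to 1.00, edgeR adjusted p = 0.0188). Cisd1 is a short gene, with 1084 exon bases, and the 500 tested genes nearest in exon length had a median log2 fold change of 0.41. With the length and GC trends removed its log2 fold change was 0.24 (edgeR adjusted p = 0.170). The call also ended without KO library 2 (0.50, edgeR adjusted p = 0.0758), KO library 3 (0.65, 0.0613), control library 2 (0.63, 0.0904) or control library 3 (0.62, 0.0592).

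**Figure D3:**
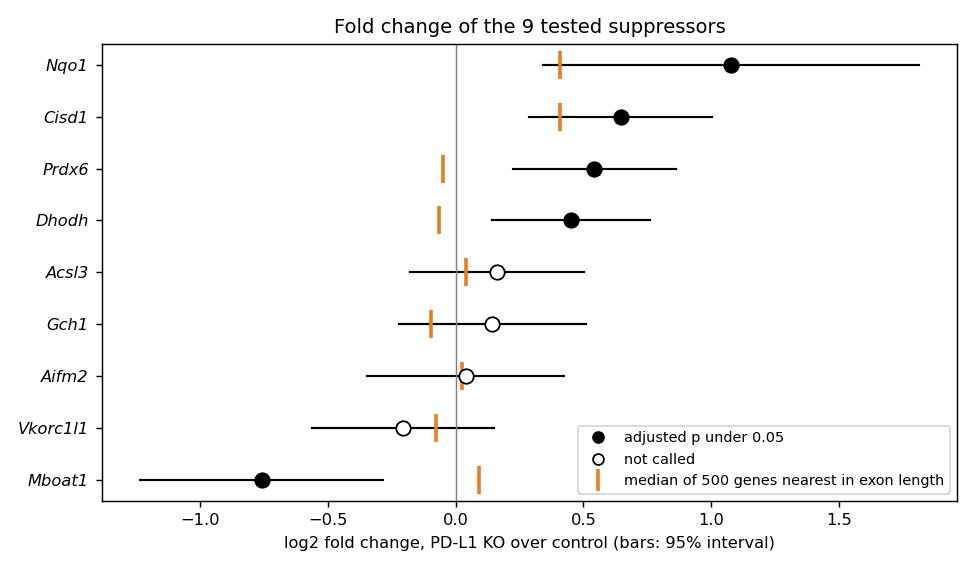
Log2 fold change (PD-L1 KO over control) of the 9 tested suppressors with its 95% interval; filled circles have an edgeR adjusted p under 0.05, and orange ticks give the median of the 500 tested genes nearest in exon length. For Nqo1 and Cisd1 that median is 0.41, and it lies inside their intervals; for Prdx6, Dhodh and Mboat1 it lies outside.

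Of the enzymes that build monounsaturated phospholipids, Mboat1 fell, Acsl3 was not called and Mboat2 could not be tested. Mboat1, a lysophospholipid acyltransferase that prefers monounsaturated chains (ENSMUSG00000038732.15, chromosome 13, 30136489 to 30246717), had 13.1, 17.9 and 15.8 CPM in KO libraries 1, 2 and 3. Control libraries 1, 2 and 3 had 35.1, 21.0 and 23.6 CPM. Every KO library was below every control library, and control library 1 was the highest by a wide margin. The KO level was 0.59 of control (log2 fold change -0.76, SE 0.21, 95% interval -1.23 to -0.28, edgeR adjusted p = 0.0290). Without control library 1 the log2 fold change was -0.51 and no longer called (edgeR adjusted p = 0.0728), as it was without KO library 2 (-0.87, 0.0583) or KO library 3 (-0.76, 0.0844). With the length and GC trends removed it was -0.87 (edgeR adjusted p = 0.0177), and with total counts alone -0.91 (0.0122).

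Mboat2 (ENSMUSG00000020646.17, chromosome 12, 24830879 to 24964397), the other such acyltransferase, had too few counts to be tested, and with at most 3 counts in a KO library and 8 in a control library a difference was not detectable at this depth. Acsl3 (ENSMUSG00000032883.15, chromosome 1, 78657825 to 78707743) had 70.4, 86.4 and 85.9 CPM in KO libraries 1, 2 and 3 and 62.2, 70.7 and 83.8 CPM in control libraries 1, 2 and 3. The groups overlapped, and control library 3 stood close to KO libraries 2 and 3. The log2 fold change was 0.16 (SE 0.15, 95% interval -0.18 to 0.50, edgeR adjusted p = 0.452). Acsl3 shares 244 exon bases with Utp14b on the same strand, which had 24.4, 27.5 and 20.9 CPM in KO libraries 1, 2 and 3 and 34.5, 30.3 and 28.7 CPM in control libraries 1, 2 and 3, so part of its reads may have been counted for either gene. In human cancer cells the oestrogen receptor induces MBOAT1. Here its gene Esr1 had 3, 0 and 0 counts in KO libraries 1, 2 and 3 and 3, 12 and 11 in control libraries 1, 2 and 3, too few to be tested.

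**Figure D4:**
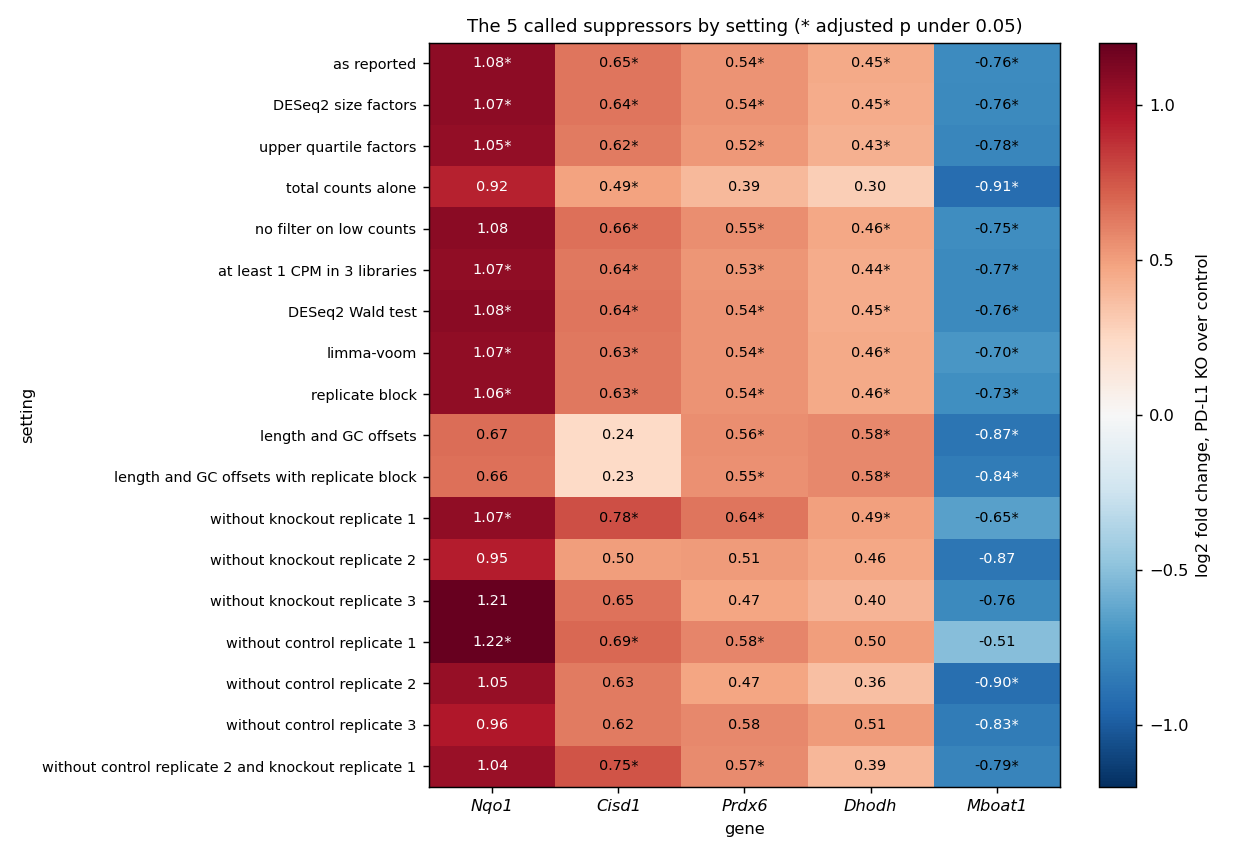
Log2 fold change (PD-L1 KO over control, colour and printed value) of the 5 called suppressors, one column per gene and one row per setting, with an asterisk at an adjusted p under 0.05. Signs are the same in every row; with length and GC offsets Cisd1 is at 0.24 and Nqo1 at 0.67, uncalled, and leaving out KO library 2 or 3 leaves none of the 5 called.

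In 17 other settings each of the 5 kept its sign, at 0.66 to 1.22 for Nqo1, 0.23 to 0.78 for Cisd1, 0.39 to 0.64 for Prdx6, 0.30 to 0.58 for Dhodh and -0.91 to -0.51 for Mboat1. Mboat1 was called in 14 of the 17, Prdx6 in 12, Cisd1 in 11, Dhodh in 10 and Nqo1 in 8. Without control library 2, edgeR called only Mboat1 (-0.90, adjusted p = 0.0499), while 4 members had an unadjusted p under 0.05 and DESeq2 called 2. Without KO library 2, edgeR called 0 members, with 5 at an unadjusted p under 0.05 and 3 called by DESeq2, and without KO library 3 it called 0, with 5 and 2. Without both control library 2 and KO library 1, Cisd1 (0.75), Prdx6 (0.57) and Mboat1 (-0.79) were called, and Nqo1 (1.04, edgeR adjusted p = 0.110) and Dhodh (0.39, 0.0781) were not. Over all tested genes edgeR called 638 without control library 2, 1044 without KO library 2 and 1222 without KO library 3, against 2896 with all 6 libraries. The share of all tested genes at an unadjusted p under 0.05 was not computed, nor that called by DESeq2 with a library left out. The member counts of these 2 kinds therefore have no share over all genes to be set beside.

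The members with the lowest adjusted p were Cisd1 and Prdx6. Of all tested genes, Med28, Bloc1s4 and Ptrh2 had the pattern over the 6 libraries most like that of Cisd1, with root mean square differences of 0.03, 0.03 and 0.04 in log2 CPM centred on each gene's mean. Smndc1, Pus1 and Capzb were nearest to Prdx6, at 0.02, 0.04 and 0.04.

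Enzymes that supply or share the substrates of the suppressors were followed in 11 lists of 79 genes, of which 71 were tested. KO cells had 18 of the 71 higher and 3 lower, with a median log2 fold change of 0.23, beside 11.8% higher and 13.5% lower and a median of 0.01 over all tested genes. With the length and GC trends removed 13 were higher and 2 lower, beside 1098 and 1263 of all tested genes. The list median was then 0.15, and that of all tested genes 0.003. With total counts alone, which put the median of all tested genes at -0.14 and that of the lists at 0.08, 6 were higher and 5 lower. These stood beside 667 and 2212 of all tested genes. Without control library 2, 3 were higher and 1 lower, beside 166 and 472 of all tested genes. Without KO library 1, 30 were higher and 4 lower, beside 2346 and 2616 of all tested genes. Leaving out KO library 1, 2 or 3 left 21, 7 and 5 of the 21 calls in place, and leaving out control library 1, 2 or 3 left 16, 4 and 8. In the same order, the calls over all tested genes numbered 4962, 1044 and 1222, and 2475, 638 and 1783.

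**Figure D5:**
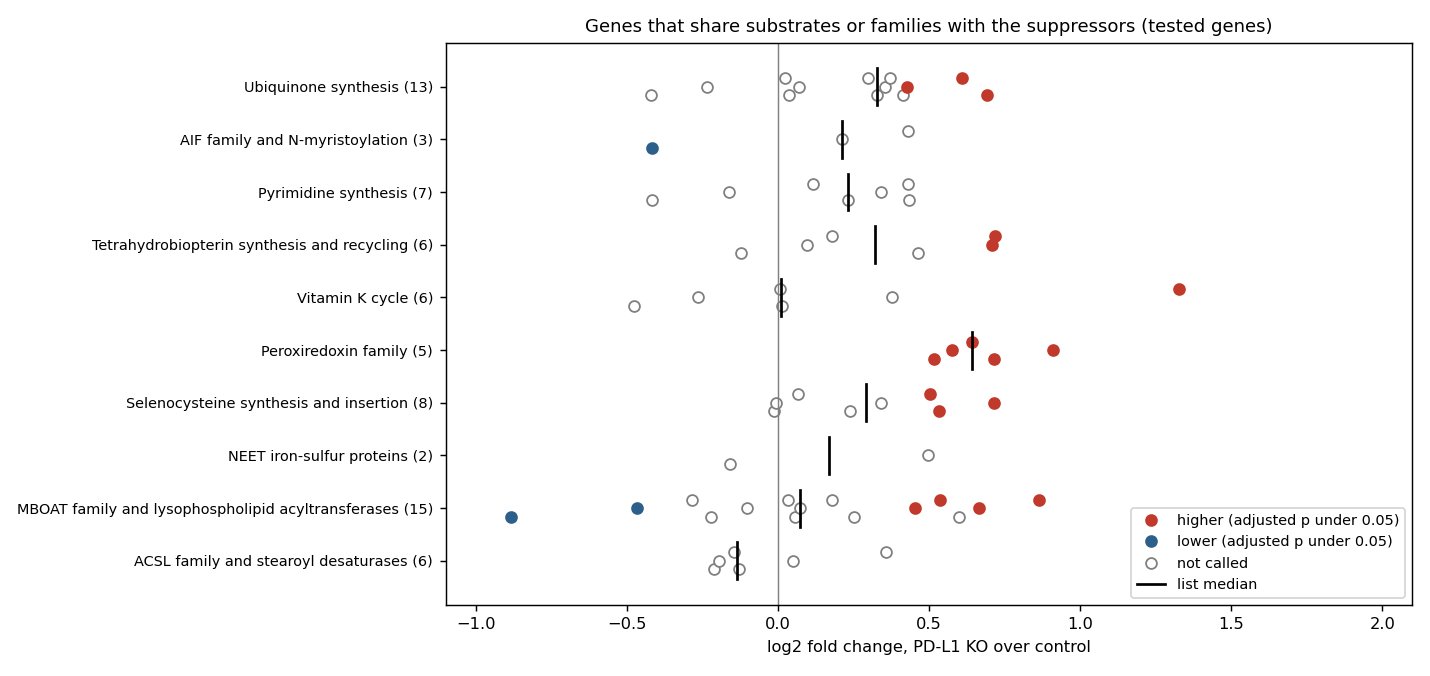
Log2 fold change (PD-L1 KO over control) of the tested genes of each list, with the number tested in brackets; filled circles passed the edgeR test (red higher, blue lower), open circles did not, and black lines are list medians. The 5 other peroxiredoxins are all filled and higher (0.52 to 0.91), while the ACSL and desaturase genes are all open.

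All 5 other peroxiredoxins, the thiol peroxidases to which Prdx6 is related, were higher (median log2 fold change 0.64), beside 11.8% of all tested genes. Prdx5, found in mitochondria, peroxisomes and cytosol, had 203, 218 and 205 CPM in KO libraries 1, 2 and 3 and 130, 94.6 and 108 CPM in control libraries 1, 2 and 3 (log2 fold change 0.91, SE 0.14, edgeR adjusted p = 0.00372). Prdx4 of the endoplasmic reticulum (0.64), the cytosolic Prdx1 (0.71) and the mitochondrial Prdx3 (0.52) also rose. Prdx2 (0.58), outside the naming rule, was called although KO library 1 (118 CPM) lay below control library 3 (119 CPM). After removal of the length and GC trends only Prdx5 was called (0.70, edgeR adjusted p = 0.00553). With total counts alone Prdx5 and Prdx4 were. Of the 5 calls, 1 held without control library 2, 2 without control library 1, 3 without control library 3, and 1 each without KO library 2 or 3; Prdx5 was called in each of these.

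In ubiquinone synthesis, which makes the quinone that Aifm2 and Dhodh reduce, 3 of 13 genes were higher and 0 lower (median log2 fold change 0.33). Over all tested genes 25.3% were called, 11.8% higher and 13.5% lower. Coq3, a methyltransferase, averaged 34.8 ± 4.27 CPM in KO and 22.9 ± 3.28 in control (log2 fold change 0.61, edgeR adjusted p = 0.0219). The ubiquinone-binding protein Coq10b (0.69) and the hydroxylase Coq6 (0.43) also rose. Coq10b was still called with the length and GC trends removed (0.63, edgeR adjusted p = 0.0312) and Coq3 (0.38, 0.156) and Coq6 (0.28, 0.0923) did not, and with total counts alone 0 were higher and 1 lower. None of the 3 was called without control library 2 (edgeR adjusted p = 0.116 for Coq3, 0.139 for Coq10b and 0.163 for Coq6) or without KO library 2, 1 held without KO library 3 or control library 3, and 2 held without control library 1.

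FSP1 reaches membranes through N-myristoylation. Of the 2 transferases, Nmt2 was lower, at 67.6 ± 4.53 CPM in KO and 90.3 ± 3.78 in control (log2 fold change -0.42, SE 0.12, edgeR adjusted p = 0.0339), and Nmt1 was not called (181 ± 8.67 CPM in KO and 157 ± 10.2 in control, log2 fold change 0.21, edgeR adjusted p = 0.212). Nmt2 was not called without control library 2 (-0.42, edgeR adjusted p = 0.132), and its call also ended without control library 3, KO library 2 or KO library 3. It ended too with the replicate block (-0.42, edgeR adjusted p = 0.0527), with that block and length and GC offsets (-0.36, 0.0523), and with no filter on low counts (-0.41, 0.0592). The same held without both control library 2 and KO library 1 (-0.40, edgeR adjusted p = 0.0808). The FSP1 relative Aifm1, the mitochondrial apoptosis-inducing factor, had a log2 fold change of 0.43 (edgeR adjusted p = 0.0607), and Aifm3 had at most 4 counts in any library. With DESeq2, and with no filter on low counts, 1 gene of this list was called higher. The count was also 1 without KO library 1, and without both control library 2 and KO library 1.

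In the pyrimidine pathway around Dhodh, 0 of 7 genes were called by edgeR, beside 25.3% of all tested genes. An unadjusted edgeR p under 0.05 was found for 3 of the 7. DESeq2 called 1 of them and 3447 of all tested genes. The multifunctional enzyme Cad, upstream of Dhodh, averaged 295 CPM in KO and 394 in control (log2 fold change -0.42, edgeR adjusted p = 0.143), and Umps, downstream of it, 120 CPM in KO and 89.4 in control (0.43, 0.0719). The DESeq2 call was neither Cad (DESeq2 adjusted p = 0.108) nor Umps (0.0521). With the length and GC trends removed, Cad was at -0.09 (edgeR adjusted p = 0.673) and Umps at 0.30 (0.165). Without KO library 1, edgeR called 3 of the 7, among them Cad (-0.52, adjusted p = 0.0483) and Umps (0.52, 0.0178). Umps was also called without control library 1 (0.59, edgeR adjusted p = 0.0317) and with no filter on low counts (0.44, 0.0477).

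In tetrahydrobiopterin synthesis and recycling, the pathway that Gch1 opens, 2 of 6 tested genes were higher and 0 lower. The shares of all tested genes were 11.8% and 13.5%. Spr, sepiapterin reductase, which completes the synthesis, averaged 73.2 ± 13.3 CPM in KO and 44.6 ± 8.26 in control (log2 fold change 0.72, SE 0.18, edgeR adjusted p = 0.0205). Pcbd2, a dehydratase of the recycling step, averaged 20.3 ± 0.776 CPM in KO and 12.4 ± 1.22 in control (0.71, SE 0.15, edgeR adjusted p = 0.0115). Spr was called once the length and GC trends were removed (0.62, edgeR adjusted p = 0.0303) and Pcbd2, with 546 exon bases, was not (0.35, 0.118). Neither was called without control library 2 (edgeR adjusted p = 0.0921 for Spr and 0.0739 for Pcbd2), and 1 of the 2 held without KO library 2, KO library 3 or control library 3.

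Of 6 genes of vitamin K metabolism, 1 was higher, beside 11.8% of all tested genes. This was Cyp4f13, a cytochrome P450 of a family whose human members degrade vitamin K. It had 194, 384 and 367 CPM in KO libraries 1, 2 and 3 and 99.0, 142 and 135 CPM in control libraries 1, 2 and 3 (log2 fold change 1.33, SE 0.25, edgeR adjusted p = 0.00748). KO library 1 was the lowest of its group and still above all controls, and the call held when any of the 6 libraries was left out. Cyp4f13 lies on chromosome 17, whose 597 tested genes had a median log2 fold change of 0.38. Vkorc1, the reductase paralogous to Vkorc1l1, was low, at 0.718 CPM in KO and 1.02 in control (log2 fold change -0.48, edgeR adjusted p = 0.423).

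Prdx6 has also been described as a carrier of selenium for selenoprotein synthesis. Of 8 genes of selenocysteine synthesis and insertion, 3 were higher and 0 lower, beside 11.8% and 13.5% of all tested genes. The 3 were the elongation factor Eefsec (log2 fold change 0.53, edgeR adjusted p = 0.0178), the selenocysteine lyase Scly (0.50, 0.0243) and Trnau1ap, which binds the selenocysteine tRNA (0.72, 0.0290). Scly averaged 108 ± 12.9 CPM in KO and 76.5 ± 4.14 in control. Length and GC offsets left Scly (0.55, edgeR adjusted p = 0.0102) and Eefsec (0.40, 0.0275) called and Trnau1ap not (0.50, 0.0882). With total counts alone 0 of the 8 were called, and DESeq2, on all 6 libraries, called 3. None of the 3 calls held without control library 2 (edgeR adjusted p = 0.0979 for Eefsec, 0.125 for Scly and 0.0935 for Trnau1ap), control library 3 or KO library 3, and 2 held without control library 1 or KO library 2. The Cisd1 relatives Cisd2 (127 ± 34.4 CPM in KO and 89.7 ± 9.03 in control, log2 fold change 0.50, edgeR adjusted p = 0.0849) and Cisd3 (24.6 ± 2.89 CPM in KO and 27.6 ± 8.37 in control, -0.16, 0.602) were not called. Cisd2 was called higher with length and GC offsets (0.65, edgeR adjusted p = 0.0430), with those offsets and the replicate block (0.62, 0.0432), with no filter on low counts (0.51, 0.0294), without KO library 1 (0.69, 0.00222) and without both control library 2 and KO library 1 (0.65, 0.0152).

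Among 15 tested acyltransferases of the MBOAT family and of lysophospholipids, 4 were higher and 2 lower (median log2 fold change 0.07). The shares of all tested genes were 11.8% and 13.5%. Agpat4, an acylglycerolphosphate acyltransferase, averaged 78.9 ± 9.92 CPM in KO and 43.3 ± 2.39 in control (log2 fold change 0.87, SE 0.14, edgeR adjusted p = 0.00398). Its relatives Agpat1 (0.53) and Agpat5 (0.67) rose and Agpat2 fell (-0.88, at 10.9 ± 1.31 CPM in KO and 20.3 ± 6.44 in control). The other 2 calls, outside the naming rule, were the sterol acyltransferase Soat1 (0.45) and Mboat7 (-0.47), which places polyunsaturated chains in phosphatidylinositol. Agpat4 and Agpat1 also lie on chromosome 17. Removing the length and GC trends left 5 of the 6 called and Mboat7 was not (-0.21, edgeR adjusted p = 0.335). Without control library 2 the calls left were Agpat4 (0.83, edgeR adjusted p = 0.0312) and Agpat2 (-1.05, 0.0358), and 2, 1 and 2 of the 6 held without KO library 2, KO library 3 or control library 3.

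The acyl-CoA synthetases related to Acsl3 and the desaturases that supply or compete for its substrates gave 0 calls of 6 tested by edgeR, limma-voom and DESeq2, with 1 at an unadjusted p under 0.05. With all 6 libraries, edgeR called 25.3% of all tested genes. Without KO library 1, edgeR called Acsl5 higher (0.46, adjusted p = 0.0111). Scd1 and Scd2, which make monounsaturated fatty acids, averaged 351 and 1899 CPM in KO and 338 and 2101 in control, with log2 fold changes of 0.05 and -0.15 (edgeR adjusted p = 0.835 and 0.442). Acsl4, which activates polyunsaturated fatty acids, averaged 180 CPM in KO and 208 in control (-0.21, edgeR adjusted p = 0.255).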

How the data were processed

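RNA-seq of total RNA from 3 PD-L1 KO and 3 control DC2.4 libraries was analysed from the whole-number gene counts deposited by the authors, which are not scaled. Per the submitters' processing notes, Trimmomatic 0.39, STAR 2.7.5c and StringTie 2.1.7 were used with mm10; which counter, annotation and strand setting were applied is not given in the sources used here, so antisense and overlapping genes cannot be separated. Columns and groups were matched by name. Of 31205 genes, 11453 passed edgeR's filterByExpr and were scaled by TMM factors. KO was tested against control with the quasi-likelihood test of edgeR (versions: R 4.3.3, edgeR 4.0.16, limma 3.58.1, DESeq2 1.42.0), with Benjamini-Hochberg adjustment over all tested genes and a threshold of 0.05. SE is that of the log2 fold change. CPM per kb used the union of GENCODE M21 exons (mm10); length and GC content were known for 99.3% of tested genes. Replicate libraries were distinct beyond sampling noise (chi-square per degree of freedom 15.2 to 50.4).

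Named genes were the members, Cd274, up to 4 called genes per list with the lowest adjusted p, all genes of lists of 4 or fewer, and the 3 nearest patterns of 2 members. Outside this rule, Prdx2, Soat1, Mboat7, Cad, Umps, Vkorc1, Scd1, Scd2, Acsl4, Acsl5 and the cell type markers were named after their values were seen. Members and lists were chosen with earlier results of these data known. Settings varied were scaling, filter, test (limma-voom, DESeq2), replicate block, length and GC offsets (loess, span 0.3) and libraries left out. On counts simulated from these libraries for KO against control, edgeR recovered 75% of 100 genes changed by 1 on the log2 scale and 99.0% of 99 changed by 2, among 11312 genes tested, with 4.95% of calls false. The simulation gave all genes the same dispersion, changed few genes, and held no length trend and no deviating library. These rates are therefore not those of the real comparison. Changes smaller than 1, as those of Dhodh, Prdx6, Cisd1 and Mboat1, were not simulated. The result for 1 gene of the lists is not reported here.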

Additional observations from a re-analysis of the deposited data

How the results depend on the processing

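The count of called members was 5 as reported. It was 2 with total counts alone, 3 with length and GC offsets, 3 with those offsets and the replicate block, 3 without both control library 2 and KO library 1, and 0 to 5 when single libraries were left out. The called genes of the fixed lists numbered 21 as reported, 11 with total counts alone, and 4 to 34 with single libraries left out. Called genes in all numbered 2896, with 638 to 4962 when single libraries were left out. Scaling by total counts put the share of higher calls among all genes at 23.2%, against 46.7% with TMM factors. Over 17 alternatives for each of the 9 tested members, 30 lost a call, 123 did not change side, and no uncalled member gained a call. Same-numbered libraries do not pair throughout: the correlations of their deviations from the group means were 0.154, -0.0644 and 0.358, and KO library 2 correlated best with control library 3. The replicate block gave 5 called members, 20 called list genes and 3212 called genes. Nqo1 had at most 43 counts in a library, and Mboat2 had too few to be tested. The causes of the lost calls were not tested.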
